A study of Mus musculus with 16 samples.

Results

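Ucp2 encodes uncoupling protein 2, a carrier of the mitochondrial inner membrane, and it is described here across a time course of ribosome profiling in macrophage-like cells. It was 1 of 13832 genes in the deposited table and 1 of the 9529 that passed the filter on low counts. It was chosen because its ribosome density, the ratio of ribosome footprints to input RNA, rose at 16 h while its input was about level. The values at 16 h are therefore given below as a description, with no test. The cells were RAW264.7, an established mouse macrophage-like line, all from 1 line and with no genetic change named in the labels. They were left untreated or exposed to LPS, the lipopolysaccharide of the bacterial outer membrane (E. coli O111:B4, 100 ng/ml), for 15, 30, 45, 60, 75 or 90 min or for 16 h. At each time 1 input library and 1 footprint library came from the same lysate, which gave 16 groups of 1 library. Untreated cells were sampled at 0 min alone, so an effect of LPS and one of culture time cannot be told apart.

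Uncoupling protein 2 belongs to the SLC25 family of mitochondrial carriers, which move small metabolites, nucleotides and ions across the inner membrane. It has been described as a carrier that exports C4 metabolites such as malate and aspartate in exchange for phosphate, and macrophages lacking it make more reactive oxygen species. The protein turns over quickly, and its mRNA is a textbook case of control by upstream open reading frames, short reading frames in the 5′ leader that ribosomes meet before the main start codon.

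In the GRCm38 build the gene, ENSMUSG00000033685.13, lay on the plus strand of chr7:100493337-100502020. The GENCODE transcript Ucp2-202 had 8 exons and 3988 bases, of which 388 were 5′ UTR, 927 coded for 309 amino acids, and 2670 were 3′ UTR. The coding sequence began in exon 3. The leader held 3 ATG triplets, all in exon 2, and they are shown because they are the sequence features for which this mRNA is known. Each stretch runs 5′ to 3′ on the plus strand and was read from the GENCODE transcript, with the ATG in capitals.
upstream ATG 1: ggacacaatagtATGaactttaag
upstream ATG 2: cagccattttctATGgaaaatcga
upstream ATG 3: ggggatcgggccATGgtagccacc
main ATG: gaaatcagaatcATGgttggtttc
The 3 upstream triplets stood at chr7:100494225-100494227, chr7:100494261-100494263 and chr7:100494285-100494287, and the main one at chr7:100496823-100496825. The upstream triplets shared 1 reading frame and 1 stop codon inside the leader, so that they opened frames of 36, 24 and 16 codons, out of frame with the coding sequence. Upstream ATG 1, upstream ATG 3 and the main ATG had a purine 3 bases before the triplet, and upstream ATG 2 had none there. Searching the transcript strand for ATG followed by an in-frame stop within the leader, 42.3% of 9109 tested genes with a matched transcript held at least 1 such frame, and 10.8% held one of 36 codons or more. Counts per gene carry no position, so footprints over the upstream frames and over the coding sequence cannot be told apart in these data.

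Of the 902 stretches of 29 bases in the Ucp2 coding sequence, all 902 were absent from the transcripts of other genes. Dnajb13, on the opposite strand, was the 1 gene overlapping Ucp2 in the annotation, and it had at most 3 counts in any library. The other uncoupling proteins of the family, Ucp1 and Ucp3, were not analysed here.

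Input RNA for Ucp2 varied less than its footprints. The input counts were 1407 in untreated cells, 1555 at 15 min, 1696 at 30 min, 1354 at 45 min, 1392 at 60 min, 1467 at 75 min, 1640 at 90 min and 1295 at 16 h. By these counts the 16 h library was the lowest of the 8 and the 30 min library the highest. All libraries were equalised to 6702930 to 6702932 counts before deposit, by a step that no source used here describes, so these counts can be read side by side but hold no information on the original depth. By rank of input, Ucp2 stood between 730 and 990 of 13832 genes over 0 to 90 min and at 984 at 16 h.

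Footprints behaved differently at the last time point. The footprint counts were 381 in untreated cells, 519 at 15 min, 340 at 30 min, 409 at 45 min, 382 at 60 min, 425 at 75 min, 334 at 90 min and 1291 at 16 h. The first 7 libraries lay between 334 and 519, and the 16 h library stood apart at 2.49 times the highest of them. The rank of Ucp2 among all genes by footprints moved from between 2576 and 3518 to 1050.

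**Figure D1:**
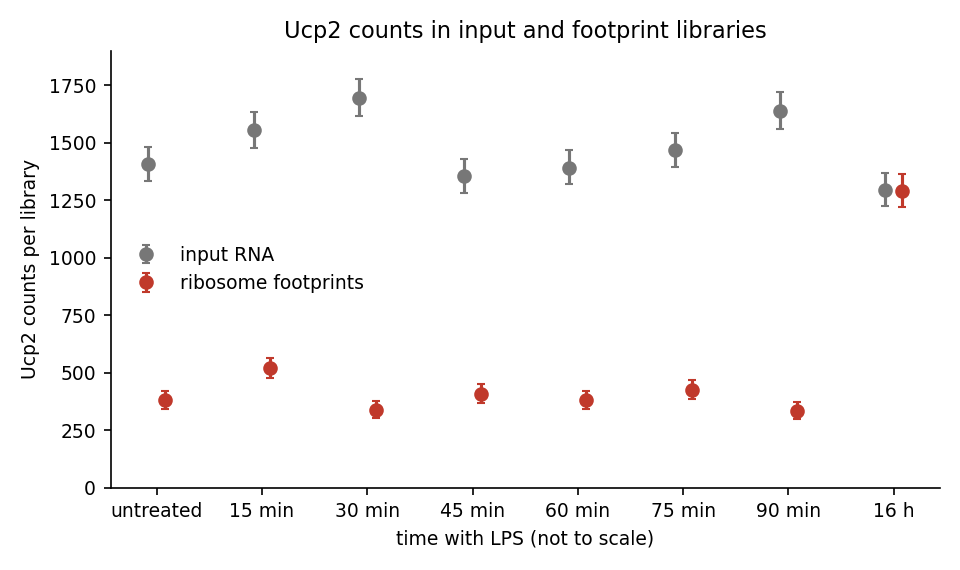
Ucp2 counts per library in input RNA (grey) and ribosome footprints (red) at the 8 time points, on a linear axis from 0. Bars are exact 95% Poisson intervals of each count, which cover counting error only. The 2 materials lie far apart over 0 to 90 min and meet at 16 h, at 1295 and 1291 counts before scaling.

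After scaling by TMM factors, which set each library against the typical gene, the density of Ucp2 was 0.296 in untreated cells, 0.380 at 15 min, 0.240 at 30 min, 0.355 at 45 min, 0.327 at 60 min, 0.343 at 75 min, 0.246 at 90 min and 1.11 at 16 h. A density of 1 is that of a gene with equal scaled counts in both materials. The highest of the first 7 densities, at 15 min, had a 95% counting interval of 0.344 to 0.420, and the 16 h density one of 1.03 to 1.20. Over those 7 libraries the log2 density had an SD of 0.26 (n = 7) about a mean of -1.70.

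Against untreated cells, Ucp2 at 16 h stood at 0.973-fold in scaled input (95% counting interval 0.901 to 1.05), at 3.65-fold in scaled footprints (3.26 to 4.11) and at 3.76-fold in density (3.27 to 4.31). On the log2 scale these differences were -0.04, 1.87 and 1.91. Against the median density of 0 to 90 min, the 16 h density was 3.40 times as high. Each of these ratios rests on single libraries and has no replicate check. In bulk RNA, a difference in every cell and a larger one in a share of the cells cannot be told apart. The intervals cover counting error only, which here is smaller than the scatter among the early libraries: density at 30 min was 0.812-fold of untreated (0.690 to 0.955) and at 15 min 1.28-fold (1.10 to 1.49).

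The 7 libraries from 0 to 90 min were tested for a change of Ucp2 within that window. The gene was chosen for its density rise at 16 h, and no baseline is named for that choice, so the early pairs may have entered it. A quadratic curve in minutes was fitted with edgeR's quasi-likelihood test and Benjamini-Hochberg adjustment over all 9529 genes, and its size is the largest excursion from the fitted value at 0 min. Input reached 0.17 ± 0.116 (log2 ± SE, adjusted p = 0.432), footprints 0.13 ± 0.203 (adjusted p = 0.884) and density -0.14 ± 0.221 (adjusted p = 0.875). None of the 3 passed the threshold of 0.05. Over all genes, the same tests called 15.2% higher and 11.9% lower for input, 12.7% higher and 9.13% lower for footprints, and 1.14% higher and 0.136% lower for density. Input of Ucp2 passed the test without the 30 min pair (0.23, adjusted p = 0.0352) and with a cubic curve (0.36, adjusted p = 0.0385), and without the untreated pair its sign turned (-0.15, adjusted p = 0.218). The footprint sign turned without the untreated pair (-0.19) and the density sign without the 15 min pair (0.21) or the 90 min pair (0.13), all short of the threshold.

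The mean level of density over 0 to 90 min was low. Relative to the typical gene, the log2 density level of Ucp2 by counts was -1.69 ± 0.0746 (edgeR, adjusted p = 1.37e-11). Without the untreated pair it was -1.67 ± 0.0869 (adjusted p = 1.62e-09). A gene chosen for a density rise at 16 h is likely to be low before it, so neither value is independent of the choice. In this test 43% of genes lay above the typical gene and 41.6% below, so that a call by itself says little, and the place among genes says more. Of all other tested genes, 5.93% had a lower level. The 200 tested genes closest to Ucp2 in input, with median input counts of 978.5 to 1905.5 beside 1437 for Ucp2, had a median level of 0.09, and 17 of the 200 had a lower level than Ucp2.

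This level depends on how much of the mRNA codes for protein, since input reads can come from the whole transcript and footprints come mostly from the coding part. In the GENCODE transcript 23.2% of the bases of Ucp2 code, against a median of 62.8% among 195 of the 200 genes with a matched transcript. Taken as footprints per coding base over input per transcript base, 87 of those 195 genes (44.6%) lay below Ucp2. RefSeq ends the gene 2391 bases earlier, which would leave a transcript of 1597 bases, and with that length 22 of the 195 (11.3%) lay below it. No source used here names the features over which reads were counted, so the low level is stated by counts alone. Differences of 1 gene between time points carry the same length on both sides only if the same transcript end was used at each time. Counts per gene cannot show this, and it was not tested.

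Among genes of like input the place of Ucp2 changed at 16 h. In untreated cells 15 of the 200 had a lower density, and at the 6 times from 15 to 90 min between 12 and 23 did. At 16 h 110 of the 200 had a lower density, and the log2 density of Ucp2, 0.15, stood near their median of 0.09. The medians of the 200 genes themselves lay between 0.02 and 0.13 at all 8 times. Over 0 to 90 min the log2 density of Ucp2 spanned 0.66, a wider range than in 188 of the 200, whose median range was 0.29.

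**Figure D2:**
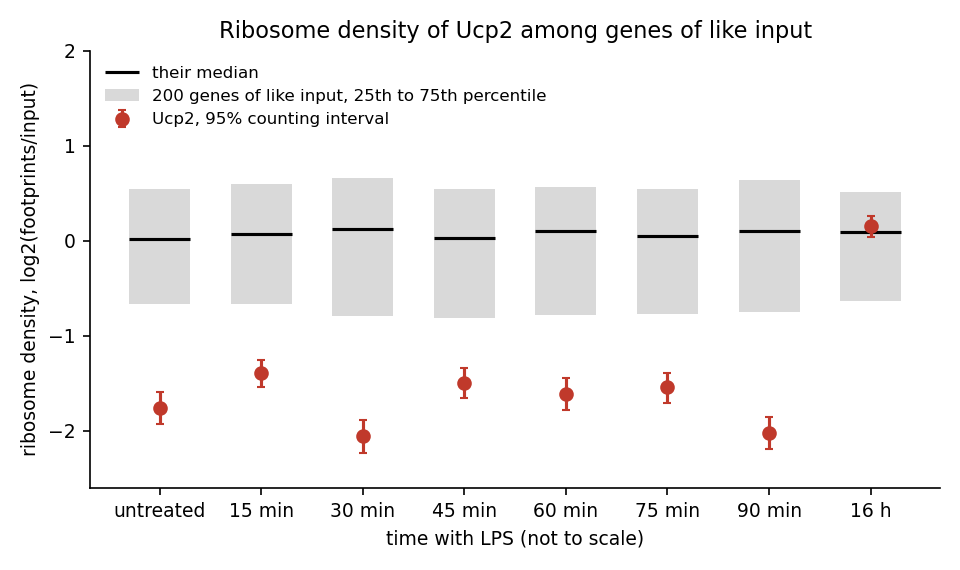
Ribosome density as log2 of scaled footprints over scaled input at the 8 time points, for Ucp2 (red, with 95% counting intervals) and for the 200 tested genes of like input (grey boxes from the 25th to the 75th percentile, black lines at the median). Ucp2 lies below the boxes from untreated to 90 min, between -2.06 and -1.40, and inside the box at 16 h, at 0.15.

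None of the 200 genes had a density difference between 16 h and untreated cells as large as the 1.91 of Ucp2, which was chosen for its rise at 16 h. The 200 differences had a median of 0.01, with 5th and 95th percentiles of -0.38 and 0.48. The nearest was Dst, which encodes the large cytoskeletal linker dystonin, at 1.54. Its footprints went from 48 to 270 counts and its input from 1332 to 2627, so that, unlike Ucp2, it had more input at 16 h. For input the log2 difference of Ucp2, -0.04, stood among the middle values of the 200, with 115 of them below it. For footprints its difference of 1.87 had 6 of the 200 above it.

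**Figure D3:**
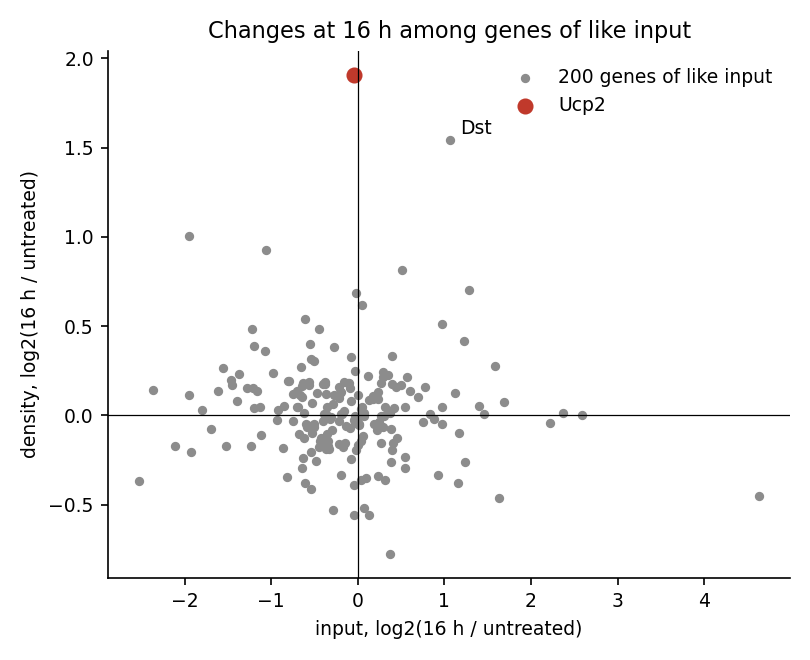
Differences between 16 h and untreated cells on the log2 scale, for input on the horizontal axis and ribosome density on the vertical axis. Each grey point is 1 of the 200 genes of like input, and the red point is Ucp2, at -0.04 and 1.91, the highest point of the plot, with Dst next at 1.54.

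Few tested genes had a larger density difference than Ucp2. Of 9516 other tested genes with counts in all 4 libraries, 16 had a larger difference from untreated cells at 16 h. These had 4 to 150 input counts and 1 to 44 footprint counts in untreated cells. Not all of them were sparse at 16 h, where their footprint counts reached 6236. Against the median of 0 to 90 min, 6 of 9523 genes had a larger density difference. Those 6, Amd1, Slc29a2, Tusc2, Btbd19, RP23-362N19.4 and RP23-58L22.2, had 20 to 56 input counts in untreated cells, where Ucp2 had 1407. Among 2656 other genes whose input moved by at most 0.25 on the log2 scale, 3 had a density difference as large as that of Ucp2. These were Pgap2 (10 to 47 footprint counts), Zfp341 (7 to 32) and Zfp729b (4 to 14), and the median over the 2656 was 0.04. These genes were named after their values were seen, by their place in that order. In the fitted test of density at 16 h, 0.378% of all genes rose and 0.126% fell. The fitted difference of Ucp2 was 1.89 on the log2 scale, given with no test.

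The 5 genes whose pattern over the 16 libraries was most like that of Ucp2 were found by the root mean square difference of log2 values centred within each material, among 5462 genes with at least 100 counts in every library. They were Ibtk, an inhibitor of Bruton's tyrosine kinase, at 0.24, the receptor phosphatase Ptprs at 0.26, the secreted glycoprotein Olfm1 at 0.26, the guanine nucleotide exchange factor Rapgef1 at 0.26 and the microtubule-associated Slain2 at 0.26. Pearson's r with Ucp2 over the 16 libraries lay between 0.79 and 0.84; all genes share those libraries and their scaling, so it is a description. None came close to Ucp2 in the size of its density difference at 16 h, the value for which Ucp2 was chosen. The 16 genes with a larger difference had at most 44 footprint counts in untreated cells. The filter of 100 counts left them out, so no larger difference could be found here. Ibtk had 214 to 419 footprint counts over 0 to 90 min and 710 at 16 h, with a log2 density difference of 0.68. The log2 density differences of Ptprs, Olfm1, Rapgef1 and Slain2 were 0.34, 0.43, 0.62 and 0.60.

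Of 50 related carriers listed, Ucp2 left aside, 42 were in the table and 35 passed the filter. None of the 35 passed the test for a change of density, either within 90 min or at 16 h. Over all genes 1.14% rose and 0.136% fell in density within 90 min, and 0.378% and 0.126% did at 16 h. At such shares, the lack of calls among 35 genes says little. The median density difference of the 35 at 16 h was 0.12 on the log2 scale, beside 0.07 over all tested genes. The members nearest to passing, named by their small adjusted p, were Slc25a39, which takes glutathione into mitochondria (0.74 ± 0.196, adjusted p = 0.131), the peroxisomal carrier Slc25a17 (0.60 ± 0.203, adjusted p = 0.259) and Slc25a43, a carrier without an assigned substrate (1.39 ± 0.470, adjusted p = 0.261). Footprints of Slc25a43 went from 18 to 50 counts, and its mean input was 31.1 counts. Without the untreated pair the value of Slc25a43 was 0.09 (adjusted p = 0.988), and without the 30 min pair Slc25a39 passed the test (0.72, adjusted p = 0.021).

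**Figure D4:**
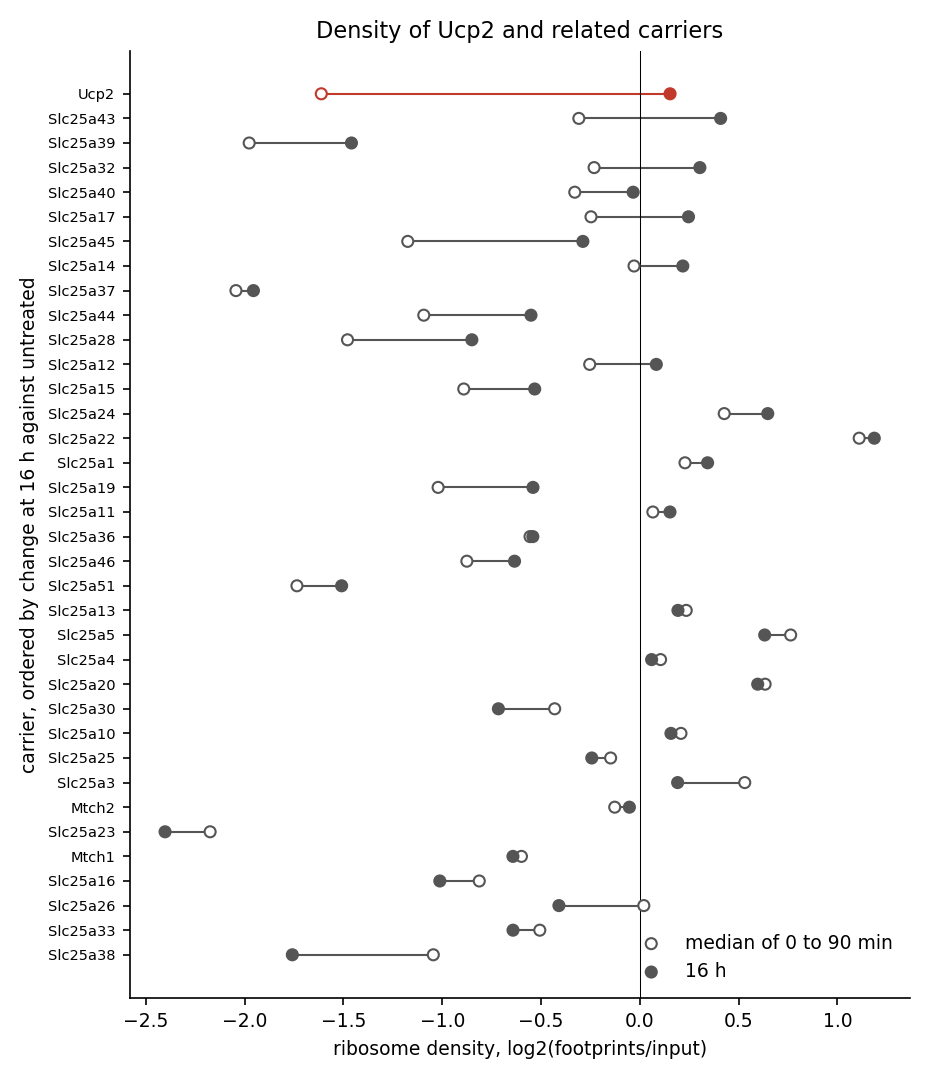
Ribosome density, as log2 of scaled footprints over scaled input, for Ucp2 (red) and the 35 related carriers that passed the filter (grey), ordered by the difference between 16 h and untreated cells. Open points are medians over 0 to 90 min and filled points the 16 h libraries. Ucp2 spans from -1.61 to 0.15, and the next carrier in the order is Slc25a43.

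In amount, single carriers changed in either direction, at shares not far from those of all genes. In input at 16 h, 8 of the 35 were higher and 13 lower by the test, against 28.3% and 27% of all genes. In footprints 11 were higher and 8 lower, against 26% and 24.6%. The pyrimidine nucleotide carrier Slc25a33 rose by 2.01 ± 0.224 in input (adjusted p = 1.44e-05) and by 1.53 ± 0.240 in footprints (adjusted p = 7.51e-05). The dicarboxylate carrier Slc25a10, which like Ucp2 moves C4 acids against phosphate, fell by 1.56 ± 0.192 in input (adjusted p = 1.00e-05) and by 1.67 ± 0.192 in footprints (adjusted p = 2.21e-06), and its density stood at -0.04 ± 0.294 (adjusted p = 0.979). Within 90 min the input of 2 rose and of 6 fell, and the footprints of 2 rose and of 4 fell, where 15.2% and 11.9% of all genes did in input and 12.7% and 9.13% in footprints. Slc25a33 and the ATP-Mg/phosphate carrier Slc25a25 were the 2 that rose in both.

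In density level by counts over 0 to 90 min, 9 of the 35 carriers lay above the typical gene and 22 below, beside 43% and 41.6% of all genes, with a median of -0.29. Ucp2 had the fifth lowest level of the 36. Among the 29 carriers with a mean input of at least 100 counts, the ADP/ATP carrier Slc25a5 had the highest level (0.76 ± 0.0456, adjusted p = 1.10e-12) and the ATP-Mg/phosphate carrier Slc25a23 the lowest (-2.25 ± 0.142, adjusted p = 4.65e-12). Of the 29-base stretches in the Slc25a5 coding sequence 13.2% were found in no other gene, so its counts may be shared with copies.

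Compared per length, Ucp2 was among the more abundant carriers. Its median input of 50.6 CPM (counts scaled to library size) per kb of transcript was the seventh highest of the 36 with the GENCODE transcript. With the RefSeq end of Ucp2 alone it would be 126 and the third highest. Its footprints stood at 69.3 CPM per kb of coding sequence over 0 to 90 min (range 58.5 to 84.9), the eighth highest, next to 79.1 (75.7 to 83.0) for the oxoglutarate carrier Slc25a11, whose range lay inside that of Ucp2. At 16 h they stood at 219, the third highest, after Slc25a5 at 1012 and the phosphate carrier Slc25a3 at 418, with Slc25a4 next at 178. Slc25a11 stood at 100.3 at 16 h.

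Because of the 3 upstream frames, Ucp2 was set beside 15 mRNAs known for upstream open reading frames, 14 of which passed the filter. At 16 h density rose on 3 of the 14 and fell on none, beside 0.378% and 0.126% of all genes, and the median difference was 0.55, beside 0.07 over all tested genes. Atf4, the transcription factor of the integrated stress response, rose by 1.59 ± 0.157 (adjusted p = 1.26e-05). Its footprints went from 635 to 3100 counts while its input went from 3158 to 5674. Its relative Atf5 rose by 1.63 ± 0.340 (adjusted p = 0.0309), with footprints from 23 to 101 counts and input from 112 to 151. The transcriptional regulator Ifrd1 rose by 0.91 ± 0.182 (adjusted p = 0.0232). In input all 3 rose at 16 h, with fitted log2 changes of 1.12, 0.72 and 1.54 in that order. The -0.04 of Ucp2 in input is a ratio of scaled counts and not a fitted value, so the measures are unlike.

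The 3 calls did not all hold. That of Atf4 was lost without the time-point block (adjusted p = 0.183) and kept in the other 14 alternatives. Those of Atf5 and Ifrd1 were lost without the untreated pair (1.25 and 0.95, adjusted p = 0.640 and 0.392) and without the block (adjusted p = 0.0679 and 0.774). That of Atf5 was also lost without the 15 or the 75 min pair (adjusted p = 0.0508 and 0.0512), and that of Ifrd1 with total-count scaling (adjusted p = 0.0676) and on a square-root time scale (adjusted p = 0.0648). The other 11 members did not pass, among them Ppp1r15a, a regulatory subunit of the phosphatase that acts on eIF2α, at 1.55 ± 0.375 (adjusted p = 0.079) and Amd1, of polyamine synthesis, at 1.90 ± 0.629 (adjusted p = 0.253, with no stretch of 29 coding bases found in Amd1 alone). Of the members that did not pass, Cd36 (-0.43), Azin1 (-0.37), Cebpa (-0.36) and Eprs (-0.23) lay below 0 and the rest above. The untreated pair is shared by Ucp2 and all these genes.

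**Figure D5:**
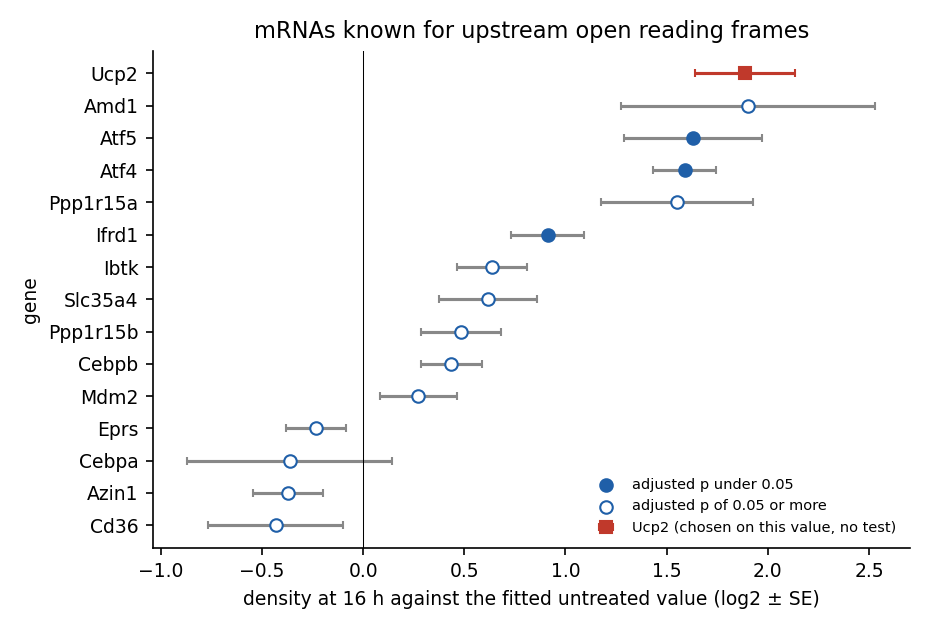
Fitted log2 difference of ribosome density between 16 h and untreated cells, with its SE, for 14 mRNAs known for upstream open reading frames and for Ucp2 (red square, chosen on this value and not tested). Filled circles had an adjusted p under 0.05 in edgeR's test and open circles did not. Atf4 and Atf5, at 1.59 and 1.63, lie below the 1.89 of Ucp2.

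In density level over 0 to 90 min 12 of these 14 mRNAs lay below the typical gene and 1, the scavenger receptor Cd36, above, beside 41.6% and 43% of all genes, with a median of -1.22. Atf4 stood at -1.91, Atf5 at -1.57, Ifrd1 at -1.21 and Ibtk at -1.91, beside -1.69 for Ucp2. Within 90 min the density of 1 member changed, a fall of Ibtk by -0.93 ± 0.158 (adjusted p = 0.00501). It no longer passed without the untreated pair (-0.75, adjusted p = 0.292) or the 15 min pair (-0.83, adjusted p = 0.0511). Ibtk is on this list and is also the gene most like Ucp2 in pattern, by a measure that includes the 16 h libraries. The 16 h density difference of Ibtk was 0.68, beside 1.91 for Ucp2, and a shared cause was not tested. Over the 9109 tested genes with a transcript, those with at least 1 upstream frame ending in the leader had a median log2 density level of -0.30, and those without a median of 0.19. Their median density differences at 16 h were 0.09 and 0.05, far below that of Ucp2 in either class.

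Of 15 genes of glutamine and C4 metabolite handling, none passed the density test at 16 h (median -0.06) or within 90 min. Few of all genes did, with 0.378% higher and 0.126% lower at 16 h and 1.14% and 0.136% within 90 min. In input 5 of the 15 rose and 5 fell at 16 h, shares near the 28.3% and 27% of all genes. Among those with the smallest adjusted p for density at 16 h were mitochondrial malate dehydrogenase Mdh2 (-0.29 ± 0.149, adjusted p = 0.520) and the glutamine transporter Slc1a5 (0.29 ± 0.156, adjusted p = 0.542). Without the untreated pair they stood at -0.16 and 0.09.

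Of 14 tested genes of mitochondrial and peroxide defence, 1 rose in density at 16 h and none fell. Over all genes 0.378% rose and 0.126% fell. The 1 that rose was Txnrd1, a thioredoxin reductase, at 0.78 ± 0.150 (adjusted p = 0.0188), with footprints from 576 to 1338 counts and input from 1221 to 1645. The call was lost with DESeq2 (adjusted p = 0.0732), without the untreated pair (0.58, adjusted p = 0.564) and without the time-point block (adjusted p = 0.666). The peroxiredoxin Prdx5 stood at 0.68 ± 0.159 (adjusted p = 0.066) and the glutathione peroxidase Gpx4 at 0.57 ± 0.173 (adjusted p = 0.209). Both passed without the 30 min pair (adjusted p = 0.00606 and 0.0423), and 16.1% of the 29-base stretches of Gpx4 were its own. In input 5 of the 14 rose and 6 fell at 16 h, beside 28.3% and 27% of all genes.

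Of 10 genes named as regulators of Ucp2 transcription, 7 were in the table and 6 passed the filter. None of the 6 passed the density test, where 0.378% of all genes rose and 0.126% fell at 16 h. In input 1 of the 6 rose and 1 fell within 90 min, beside 15.2% and 11.9% of all genes. At 16 h 1 rose and 3 fell, beside 28.3% and 27%. The NF-κB subunit Rela rose in input within 90 min (1.60 ± 0.167, adjusted p = 0.000114) and at 16 h (0.78 ± 0.206, adjusted p = 0.0073). The coactivator Ppargc1b, among those that fell, did so by 1.45 ± 0.212 (adjusted p = 0.000191) and by 1.20 ± 0.260 (adjusted p = 0.00131). In density at 16 h Ppargc1b stood at 1.23 ± 0.422 (adjusted p = 0.270), the nuclear receptor Ppard at 0.94 ± 0.404 (adjusted p = 0.420) and Srebf1, a regulator of lipid synthesis, at 0.24 ± 0.167 (adjusted p = 0.656). Without the untreated pair Ppargc1b stood at 2.32 (adjusted p = 0.124) and Srebf1 at -0.03. Pparg had at most a stray count, with a mean of 0.25 in input.

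The libraries showed the cell type of the labels. All 10 macrophage markers were in the table, and 9 had at least 100 counts in every input library, with Itgam, an integrin of myeloid cells, at 17 to 71. The fibroblast, epithelial and lymphocyte markers present, Dcn, Krt8, Cdh1 and Cd79a, had at most 5 input counts. The summed input of 5 LPS response genes went from 203 counts in untreated cells to 32309 at 16 h.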

How the data were processed

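Ribosome footprints and input RNA of RAW264.7 cells were counted per gene in 16 libraries, 1 per material and time point. The deposited table holds whole-number read counts made by the authors. It also holds a normalised signal, the deposited counts divided by a size factor that was constant within each column, which was used only for that check. Bowtie 0.12.8, DESeq2 1.18.1 and mm10 are named in the submitters' processing notes, and no source used here describes how features, strand or repeated matches were counted. Input and footprints were cut to similar lengths and depleted of ribosomal RNA, and footprints came from monosomal fractions of lysates treated with cycloheximide, per the labels' protocols.

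A gene was kept if 4 or more input and 4 or more footprint libraries had 10 or more counts. Counts were scaled by TMM and fitted with edgeR 4.0.16 (robust quasi-likelihood fit, R 4.3.3) with linear and quadratic terms over 0 to 90 min and a term for 16 h. Density was the interaction of material with time, blocked by time point, and the level was the material term over 0 to 90 min. As no group has a second library, errors come from how far libraries lie from the curve (4 residual degrees of freedom for changes of density), and the lone 16 h pair was assumed to vary like the rest. P-values measure the scatter of these libraries about the fitted model, not a spread between replicates, and no scatter was measured at 16 h. The fits were tested on simulated data. Counting intervals of 95% (exact binomial for a ratio of 2 counts, a log-scale normal form for a ratio of ratios, exact Poisson for a count) cover counting error only. Leaders were read from GENCODE M21 transcripts, and no protein sequence is shown.

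Genes named were Ucp2, the 3 members of each list with the smallest adjusted p for density at 16 h, carriers with a mean input of at least 100 counts, and the 5 genes most like Ucp2. One list member that this rule names is not reported here. The gene, the lists and the tests were chosen with earlier results of these data known. Alternatives were total-count and RLE scaling, DESeq2 1.42.0, no filter, other time terms, no block, and leaving out each pair of 0 to 90 min. Level per length, the median of 0 to 90 min as reference and the list members' alternatives were added after the data were seen.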

Additional observations from a re-analysis of the deposited data

How the results depend on the processing

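The 16 h values of Ucp2 moved by less than their counting intervals with total-count scaling or RLE factors (density 1.88 with each, footprints 1.76 and 1.86, input -0.12 and -0.02) and against the median of 0 to 90 min (density 1.77). The low density level by counts passed the test under all 12 alternatives, from -1.92 to -1.63, and from -1.75 to -1.63 on leaving out 1 pair. None of these alternatives removes the choice of Ucp2 for its rise at 16 h, which makes a low level before 16 h likely. With 100 or 400 genes of like input, 9% and 8.25% lay below the level of Ucp2, but per transcript length 44.6% did. Within 90 min no alternative brought footprints or density of Ucp2 past the threshold. The sign turned for footprints with total counts (-0.23) and for density with the square root of time (0.16), and input passed with a cubic curve (0.36). Leaving out 1 pair gave -0.15 to 0.23 for input, -0.19 to 0.27 for footprints and -0.28 to 0.21 for density. For these the cause was not tested.

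Over all genes, the 48 called for density at 16 h became 25 with DESeq2, 30 with the square root of time and 27 without the block, and 7 to 141 on leaving out 1 pair (7 without the untreated and 141 without the 30 min pair). The 122 called for density within 90 min became 56 with a linear term and 0 to 330 on leaving out those same pairs. Footprint calls within 90 min went from 2077 to 3541 with total counts, and from 1388 to 2530 on leaving out 1 pair. Input calls within 90 min went from 2579 to 1677 with DESeq2 and to between 1681 and 2921, and footprint calls at 16 h from 4818 to between 3098 and 5097. Of the other list members, Srebf1 (0.24) ranged from -0.032, without the untreated pair, to 0.32 on leaving out 1 pair. Also without that pair, the fitted 16 h density moved from 1.39 to 0.09 for Slc25a43, from 0.29 to 0.09 for Slc1a5, from -0.29 to -0.16 for Mdh2 and from 1.23 to 2.32 for Ppargc1b. Density was fitted with each lysate's input and footprints paired by the time-point block, and there are no replicates beyond that. The original depth is unknown.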
